A study of Avena sativa with 6 samples.

Results

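Xyloglucan and pectin are the gel-like and tethering polysaccharides between the cellulose fibres of the primary plant cell wall. Enzymes secreted into the wall keep altering both: xyloglucan endotransglucosylases cut xyloglucan chains and rejoin their ends, pectinesterases take methyl groups off pectin, and pectate lyases and polygalacturonases cut the pectin backbone. GAUT enzymes work earlier, in the Golgi, where they build the galacturonic acid backbone. Grasses such as oat have little of either polymer beside mixed-linkage glucan, and these gene families are best studied in other plants, mainly Arabidopsis.

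The genes described here were chosen by KEGG number. The rule uses no expression value, but the classes were picked with earlier results of these data known. Of 136488 genes in the table, 280 carry such a number: 97 xyloglucan endotransglucosylases (K08235 or K14504), 76 pectinesterases (K01051), 24 pectate lyases (K01728), 18 polygalacturonases (K01184) and 65 GAUT genes (K13648). No gene fell in more than 1 class. RNA had been measured in peeled grains of BY9 (Baiyan No.9), a high-oil oat cultivar, in 3 libraries from ears left in the light and 3 from ears shaded for 4 days after flowering. All 6 libraries share cultivar and tissue. Separate plants are not stated in the labels for libraries of 1 group, and p-values therefore cover only the spread among these libraries, possibly a technical one. The study's title places the comparison in the question of how ear photosynthesis feeds grain weight and oil.

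Most tested xyloglucan endotransglucosylases, pectinesterases and pectate lyases were higher in grains of shaded ears, and for GAUT genes this held only at some scalings of the libraries. Of the 27 tested pectinesterases, 11 had an unshaded mean under 1 FPKM and entered the test through the shaded libraries. The 97 xyloglucan endotransglucosylases summed to 269 ± 118 FPKM (fragments scaled to gene length and library size; SD, n = 3) in the light and 1009 ± 274 FPKM under shading, 3.75-fold higher. The 24 pectate lyases went from 43.3 ± 16.0 to 205 ± 46.6 FPKM, 4.74-fold higher, and the 76 pectinesterases from 48.6 ± 23.3 to 147 ± 19.5 FPKM, 3.02-fold higher. The 65 GAUT genes differed less, from 182 ± 22.8 to 308 ± 43.4 FPKM, 1.70-fold. The 18 polygalacturonases together stayed under 5 FPKM in every library. In each of the 5 classes the lowest ear-shaded sum lay above the highest unshaded sum, and no p is given for a sum, since the classes were chosen with earlier results of these data known.

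**Figure D1:**
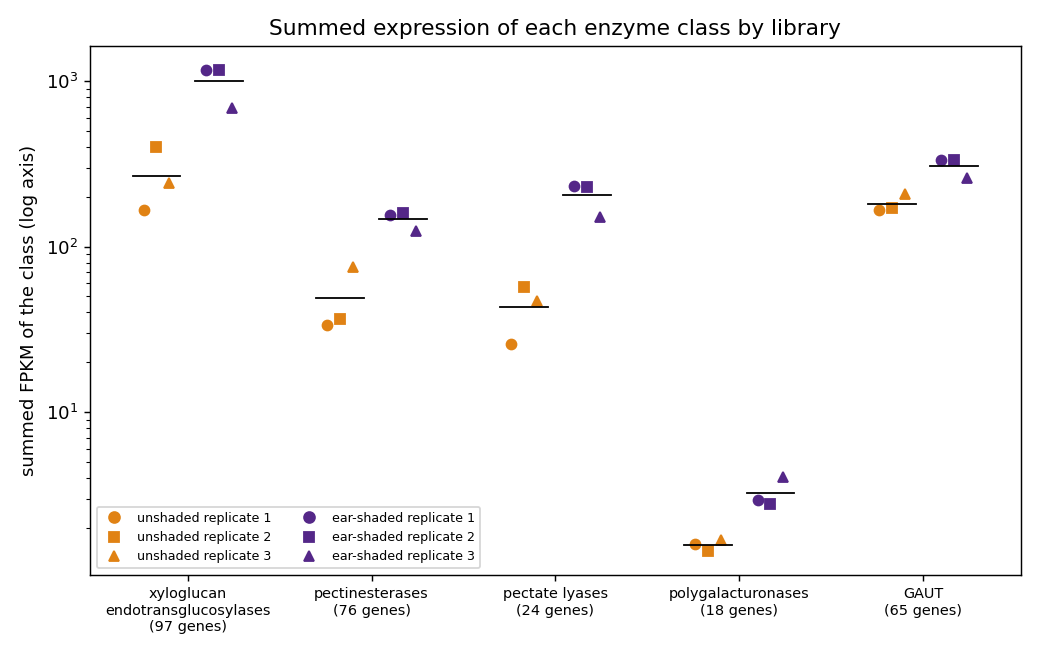
Summed FPKM of every gene in each class (log axis), 1 point per library, with black bars for the mean of the 3 libraries of a group. All ear-shaded points lie above all unshaded points of the same class. The sums of xyloglucan endotransglucosylases span 167 to 398 FPKM without and 692 to 1168 FPKM with shading.

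Whole-table differences frame these counts. Of the 58283 genes that averaged 1 FPKM or more over the 6 libraries, 42.4% passed as higher under shading and 21.5% as lower (limma on log2(FPKM + 1), Benjamini-Hochberg adjusted p under 0.05 over all genes tested). Over all genes tested the median change was 0.26 on the log2 scale, and it moved to -0.024 with median-of-ratios scaling of the libraries, where 28% were higher and 31.1% lower. Across genes, r was 0.989 between replicates 1 and 2 of the shaded ears and 0.949 to 0.965 in the other pairs of 1 group. Summed FPKM per library ran from 493004.4 to 561771.7, and how many reads lie behind them is unknown. In bulk grains, fewer cells of a type and less RNA per cell cannot be told apart.

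Of the 280 members, 132 reached a mean of 1 FPKM and were tested. In that set 97 (73.5%) were higher under shading, 1 was lower and 34 did not pass. Some of these could pass the filter only through the shaded libraries, since 23 had an unshaded mean under 1 FPKM. Among the 108 with both group means at 1 FPKM or more, 76 were higher and 1 lower, where 37.6% and 19.4% of all such genes were. Over all 280 members, the 3 ear-shaded values lay wholly above the 3 unshaded ones in 148 and wholly below in 4, against 35.4% and 16.7% of all genes in the table. With median-of-ratios scaling 72 members were higher and 3 lower. The authors' deposited table marks 64 of the 280 as up and 4 as down, against 13.4% and 12.9% of all its rows.

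**Figure D2:**
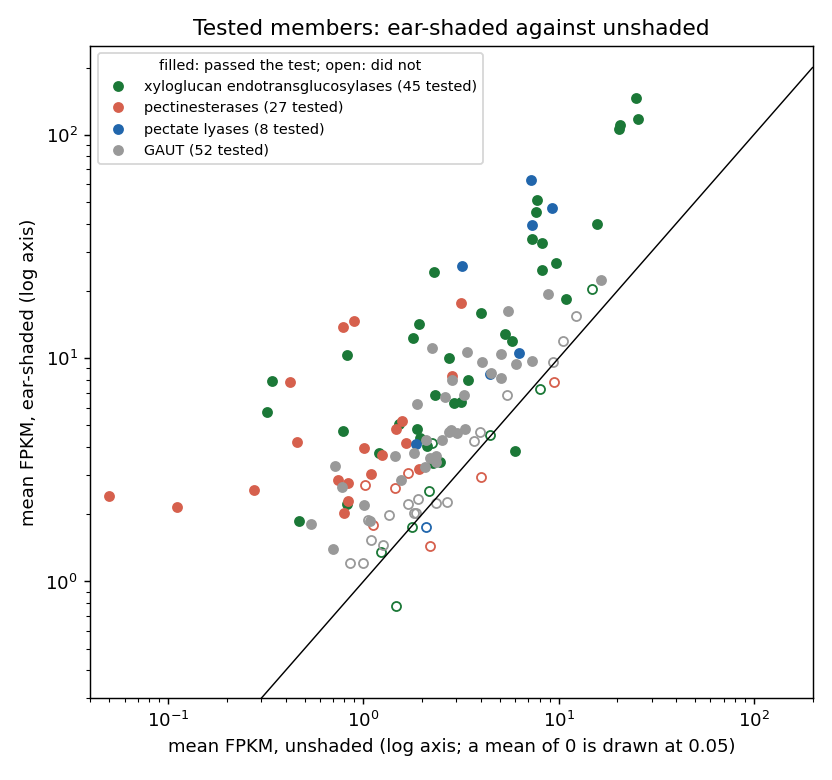
Mean FPKM of the 132 tested members in ear-shaded (vertical, log axis) against unshaded grains (horizontal, log axis), by class; filled points passed the test and the line marks equal means. Nearly all points that passed lie above the line, with 1 filled point below it, and xyloglucan endotransglucosylases and pectate lyases hold the highest ear-shaded means.

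Xyloglucan endotransglucosylases had 36 of 45 tested genes (80.0%) higher, 1 lower and 8 that did not pass. Of all tested genes 42.4% were higher and 21.5% lower. Of the 38 with both group means at 1 FPKM or more, 30 (78.9%) were higher and 1 lower, where 37.6% and 19.4% of all such genes were. Over the 45 tested genes, 6 of them with an unshaded mean under 1 FPKM, the median log2 fold change was 1.22. That is 0.96 above the median of all tested genes, and it stayed between 0.90 and 1.01 above it in 3 other scalings. Expression was concentrated: 14 genes had a mean of at least 10 FPKM, 52 stayed under 1 FPKM, and the 4 most abundant held 44.8% of the sum. Without those 4 the sum was still 2.98-fold higher.

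The 4 most abundant genes all carry the KEGG number of TCH4, which in Arabidopsis is an endotransglucosylase gene induced by touch. AVESA.00010b.r2.6CG1140630 was at 9.68, 49.4 and 15.9 FPKM in unshaded and 179, 179 and 79.5 FPKM in ear-shaded replicates 1 to 3. The groups did not overlap, yet unshaded replicate 2 stood well above the other unshaded libraries and ear-shaded replicate 3 well below the other shaded ones. Its log2 fold change was 2.72 (SE 0.56, limma adjusted p = 0.00373). AVESA.00010b.r2.7DG1351280 was at 9.57, 52.3 and 14.8 FPKM in unshaded and 147, 139.7 and 66.9 FPKM in shaded libraries. AVESA.00010b.r2.7DG1351290 was at 8.30, 42.6 and 11.2 FPKM and at 135, 138 and 60.7 FPKM. AVESA.00010b.r2.6CG1140640 was at 8.26, 40.8 and 11.8 FPKM and at 129, 129 and 60.3 FPKM. The same libraries were thus high and low in all 4 genes, and each gene rose (limma adjusted p from 0.00373 to 0.00708). Their folds in mean FPKM were 5.85, 4.61, 5.36 and 5.23, in the order given. Without unshaded replicate 2 these folds became 11.4, 9.67, 11.4 and 10.6. AVESA.00010b.r2.2AG0253380, also with the TCH4 number, rose 6.58-fold, from 2.95, 16.0 and 4.34 FPKM to 63.1, 61.2 and 29.1 FPKM, and 14.0-fold without unshaded replicate 2. Such close copies may share reads, and how the authors divided reads among copies is not given in the sources used here, so the sum is more certain than single genes.

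Unshaded replicate 2 was the highest unshaded library for 23 of the 45 tested genes, or 51.1%, where it was so for 32.0% of all tested genes. Over the 25 genes with the TCH4 number the unshaded sums were 62.2, 251 and 105 FPKM and the ear-shaded sums 827, 821 and 407 FPKM. These 25 genes held 12 of 13 tested genes higher, and the exception, AVESA.00010b.r2.6CG1140690, was at 4.02, 3.85 and 5.56 FPKM and at 4.37, 4.60 and 4.65 FPKM. The 72 genes with K08235 alone had more even unshaded sums, of 104, 147 and 137 FPKM, and ear-shaded sums of 341, 345 and 285 FPKM. Of these, 24 of 32 tested genes were higher and 1 lower. In the TCH4 set 1 tested gene, and in the K08235 set 5, had an unshaded mean under 1 FPKM and entered through the shaded libraries. With both group means at 1 FPKM or more, 11 of 12 with the TCH4 number and 19 of 26 with K08235 alone were higher. Of all such genes 37.6% were. Over all tested genes of each set the median log2 fold changes were 2.17 and 0.97, a difference that was not tested.

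Larger folds were found at lower expression. AVESA.00010b.r2.2DG0331610 went from 0.216, 0.629 and 0.179 FPKM to 8.62, 8.87 and 6.20 FPKM. The log2 fold change was 2.73. With an unshaded mean of 0.342 FPKM the gene entered the test through the shaded libraries, so this is a description and no p is given. Mean FPKM rose 23.1-fold, or 39.9-fold if unshaded replicate 2 is left out. AVESA.00010b.r2.2CG0274930 rose from 1.29, 2.83 and 2.78 FPKM to 27.0, 27.3 and 18.2 FPKM, the largest log2 fold change of the class at 2.95 (SE 0.24, limma adjusted p = 6.22e-05). The only lower gene was AVESA.00010b.r2.5AG0799130, which fell from 4.91, 6.15 and 6.85 FPKM to 3.89, 3.95 and 3.68 FPKM, with a log2 fold change of -0.52 (standard error 0.13, limma adjusted p = 0.00987). Among abundant genes that did not pass, AVESA.00010b.r2.1DG0193760 was at 17.1, 15.0 and 12.4 FPKM in unshaded and 21.9, 23.5 and 15.7 FPKM in shaded libraries, so its groups overlapped. Of the 52 genes under 1 FPKM, 14 had wholly higher shaded values, a share near the 27.4% of all genes under that level. Wholly lower values were found in 0 of them, against 11.2% of all such genes. With no filter on low values, 50 of the 97 genes were called higher by limma, where 28.4% of all genes were.

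**Figure D3:**
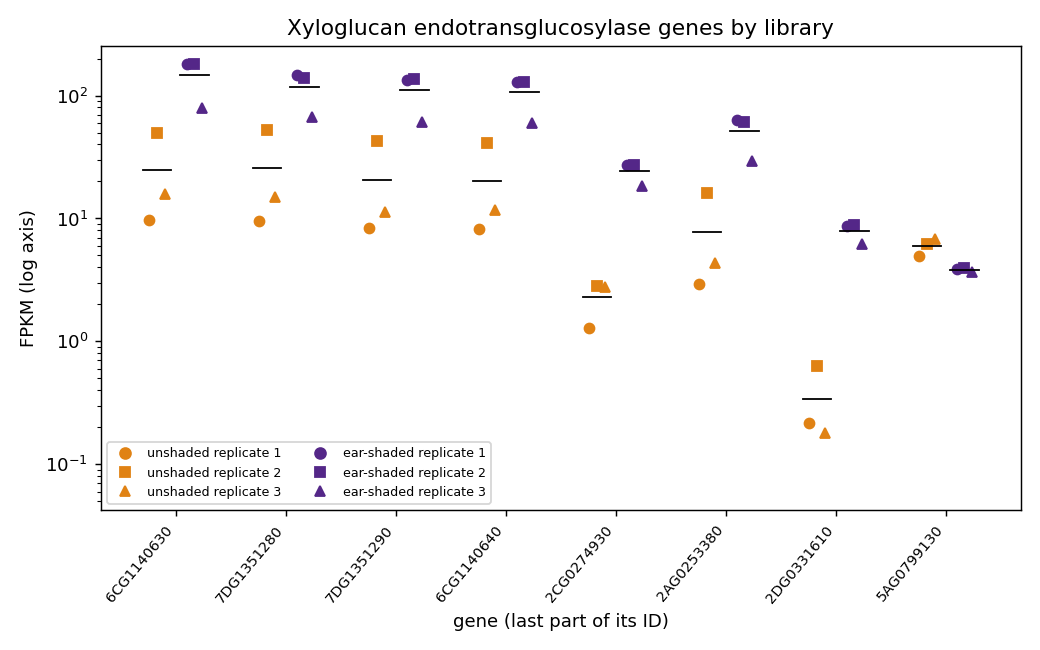
FPKM of the 8 described xyloglucan endotransglucosylase genes (log axis), 1 point per library, with black bars for group means. In the 4 genes at the left unshaded replicate 2, between 40.8 and 52.3 FPKM, lies above the other unshaded points, and the gene at the right is the 1 that fell.

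GAUT genes, which build the pectin backbone, were the most evenly expressed class and changed least. Of 65 genes, 52 were tested, with 34 (65.4%) higher, 0 lower and 18 that did not pass at the deposited scaling. Of all tested genes 42.4% were higher and 21.5% lower. Of the 46 with both group means at 1 FPKM or more, 30 (65.2%) were higher, where 37.6% of all such genes were. With median-of-ratios scaling 16 of the 52 were higher and 2 lower, where 28% and 31.1% of all tested genes were. With quantile normalization 22 were higher and 1 lower, and the counts over all tested genes at that setting are given at the end. The number of GAUT genes called thus depends on scaling, as does the number in the whole table. The 2 genes lower with median-of-ratios scaling were AVESA.00010b.r2.4AG0601010 and AVESA.00010b.r2.5DG0959560. The median log2 fold change was 0.51, which is 0.25 above that of all tested genes and between 0.24 and 0.25 above it in the other scalings. No called GAUT gene rose 5-fold in mean FPKM, and 18 rose at least 2-fold.

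The most abundant GAUT gene, AVESA.00010b.r2.5AG0856160, was at 15.5, 15.6 and 18.3 FPKM in unshaded and 23.7, 24.5 and 19.0 FPKM in shaded libraries (log2 fold change 0.42, SE 0.14, limma adjusted p = 0.0326). Its groups did not overlap, but the call ended under median-of-ratios scaling, where its log2 fold change was 0.045, and under quantile normalization, where it was 0.33. It also ended when unshaded replicate 1 (0.38), unshaded replicate 2 (0.38), ear-shaded replicate 1 (0.38) or ear-shaded replicate 2 (0.35) was left out. AVESA.00010b.r2.2DG0353500 rose 2.19-fold, from 7.65, 5.90 and 12.9 FPKM to 20.4, 21.8 and 15.7 FPKM (limma adjusted p = 0.00659). The next in abundance, AVESA.00010b.r2.4DG0744890 and AVESA.00010b.r2.5DG0991300, did not pass. They were at 12.2 ± 1.10 and 10.5 ± 0.997 FPKM in unshaded and 15.4 ± 1.89 and 11.9 ± 1.49 FPKM in shaded grains (SD, n = 3). Both turned to a negative sign with median-of-ratios scaling, and AVESA.00010b.r2.4DG0744890 passed as higher without ear-shaded replicate 3 (log2 fold change 0.40).

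Clearer increases came from less abundant GAUT genes. AVESA.00010b.r2.5AG0816740 rose 4.95-fold, from 2.50, 1.62 and 2.63 FPKM to 11.4, 13.2 and 8.79 FPKM, with a log2 fold change of 1.90 (standard error 0.18, limma adjusted p = 0.00011). It also carries a further galacturonosyltransferase number, K20867. AVESA.00010b.r2.7DG1397590 rose 3.12-fold to 10.6 ± 2.01 FPKM and AVESA.00010b.r2.2CG0271720 rose 2.96-fold to 16.3 ± 3.46 FPKM (limma adjusted p = 0.00115 and 0.000653). Of the 9 genes with K20867, 6 of 9 tested were higher, and of the 56 without it, 28 of 43 tested. All 9 had both group means at 1 FPKM or more, while 6 of the 43 had an unshaded mean under 1 FPKM. Of the other 37 without the number 24 were higher, where 37.6% of all genes with both means at that level were. Unshaded replicate 3 was the highest unshaded library for 76.9% of the tested GAUT genes and ear-shaded replicate 3 the lowest shaded library for 86.5%, against 49.6% and 49.6% of all tested genes. The part of these libraries in the smaller GAUT difference was not tested.

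Pectinesterases remove methyl groups from pectin, which lets calcium cross-link it or opens it to cutting enzymes. Of 76 genes 27 were tested, with 20 (74.1%) higher and 0 lower, and 7 did not pass. Over all tested genes the shares were 42.4% higher and 21.5% lower. Since 11 of the 27 had an unshaded mean under 1 FPKM, their entry into the test rested on the shaded libraries. Of the 16 with both group means at 1 FPKM or more, 9 (56.25%) were higher and 0 lower. Of all such genes 37.6% were higher and 19.4% lower. The median log2 fold change of all 27 lay 0.84 above that of all tested genes, and between 0.82 and 0.92 above it in the other scalings. These medians include the 11 genes that entered through the shaded libraries, so they are a description only.

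The most abundant pectinesterase, AVESA.00010b.r2.3CG0514630, rose 5.58-fold, from 2.56, 3.68 and 3.26 FPKM to 20.2, 19.8 and 13.1 FPKM, with a log2 fold change of 2.15 (standard error 0.19, limma adjusted p = 7.74e-05). Its unshaded libraries lay close together, and the groups were far apart. AVESA.00010b.r2.2AG0242730 went from 0.523, 1.26 and 0.912 FPKM to 17.4, 16.8 and 9.73 FPKM, 16.3-fold. AVESA.00010b.r2.2DG0360690 went from 0.433, 0.757 and 1.18 FPKM to 16.2, 16.4 and 8.64 FPKM, 17.4-fold. AVESA.00010b.r2.7DG1381990 went from 0.326, 0.343 and 0.600 FPKM to 9.19, 9.53 and 4.80 FPKM, 18.5-fold. These 3 genes were thus near or under 1 FPKM in the light and among the most abundant of the class under shading. Their log2 fold changes were 3.02, 3.01 and 2.59. All 3 are among the 11 genes that entered the test through the shaded libraries, so these values are a description and no p is given. In all 3 ear-shaded replicate 3 was the lowest shaded library, as in 74.1% of the tested pectinesterases and 49.6% of all tested genes.

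Not every abundant pectinesterase followed. AVESA.00010b.r2.4AG0634410, the next in mean abundance, was at 7.16, 2.62 and 18.7 FPKM in unshaded and 7.81, 7.52 and 8.08 FPKM in shaded libraries. Its unshaded libraries spread widely around the tight shaded ones, and it did not pass (log2 fold change 0.08, SE 0.52, limma adjusted p = 0.905). The sign turned with median-of-ratios scaling, with quantile normalization and without unshaded replicate 2. AVESA.00010b.r2.3CG0508880 had a like spread, at 2.33, 0.780 and 8.86 FPKM and at 2.44, 2.61 and 3.74 FPKM. Unshaded replicate 3 was the highest unshaded library for 66.7% of the tested pectinesterases, against 49.6% of all tested genes.

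Many plant pectinesterases are made with an inhibitor domain in front of the enzyme. In the table, 47 of the 76 genes carry the Gene Ontology term for pectinesterase inhibitor activity, and 15 of these were tested, with 11 higher. Of the 29 without the term 12 were tested, with 9 higher, where 42.4% of all tested genes were higher. With both group means at 1 FPKM or more, 5 of 9 with the term and 4 of 7 without it were higher. Of all such genes 37.6% were. Genes with the term summed to 34.0 ± 17.1 FPKM in unshaded and 107 ± 21.3 FPKM in shaded grains, 3.14-fold, and those without it to 14.7 ± 6.19 and 40.1 ± 2.24 FPKM, 2.73-fold. All 5 of the pectinesterases given with values per library as most abundant or most raised carry the term.

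Pectate lyases cut pectin that has lost its methyl groups. Only 8 of 24 genes were tested. Of these 7 were higher and 0 lower at the deposited scaling, and 5 were higher with median-of-ratios scaling or quantile normalization. Of all tested genes 42.4% were higher at the deposited scaling and 28% with median-of-ratios scaling. All 8 had both group means at 1 FPKM or more, and 37.6% of all such genes were higher at the deposited scaling. The counts over all tested genes with quantile normalization are given at the end. A few genes made up the class, since the 4 most abundant held 81.4% of the sum and the sum of the other 20 was 1.85-fold higher.

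AVESA.00010b.r2.7AG1202720 rose from 2.57, 15.0 and 4.03 FPKM to 75.8, 74.0 and 38.1 FPKM, with a log2 fold change of 3.20 (standard error 0.53, limma adjusted p = 0.00128). Mean FPKM rose 8.70-fold, or 19.0-fold if unshaded replicate 2 is left out. AVESA.00010b.r2.5CG0864220 rose from 1.35, 6.53 and 1.75 FPKM to 32.5, 31.6 and 13.8 FPKM, 8.08-fold, and 16.8-fold without unshaded replicate 2. Both genes had the same high unshaded and low shaded library as the TCH4-type endotransglucosylases. AVESA.00010b.r2.2AG0246160 rose from 5.23, 13.3 and 9.37 FPKM to 48.8, 50.5 and 41.0 FPKM, 5.02-fold (limma adjusted p = 0.000303). AVESA.00010b.r2.2DG0356960 rose from 4.62, 9.70 and 7.61 FPKM to 44.1, 44.7 and 30.2 FPKM, 5.42-fold (limma adjusted p = 0.000196). The groups of all 4 genes were wholly separated. The 1 tested gene that did not pass, AVESA.00010b.r2.2CG0324870, was at 0.332, 3.47 and 2.49 FPKM and at 1.99, 1.88 and 1.40 FPKM. Of the 16 pectate lyases under 1 FPKM, 8 had wholly higher and 2 wholly lower shaded values, against 27.4% and 11.2% of all genes under that level. The 2 lower ones were AVESA.00010b.r2.7DG1357870 and AVESA.00010b.r2.6DG1156080, both under 0.1 FPKM in every library.

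**Figure D4:**
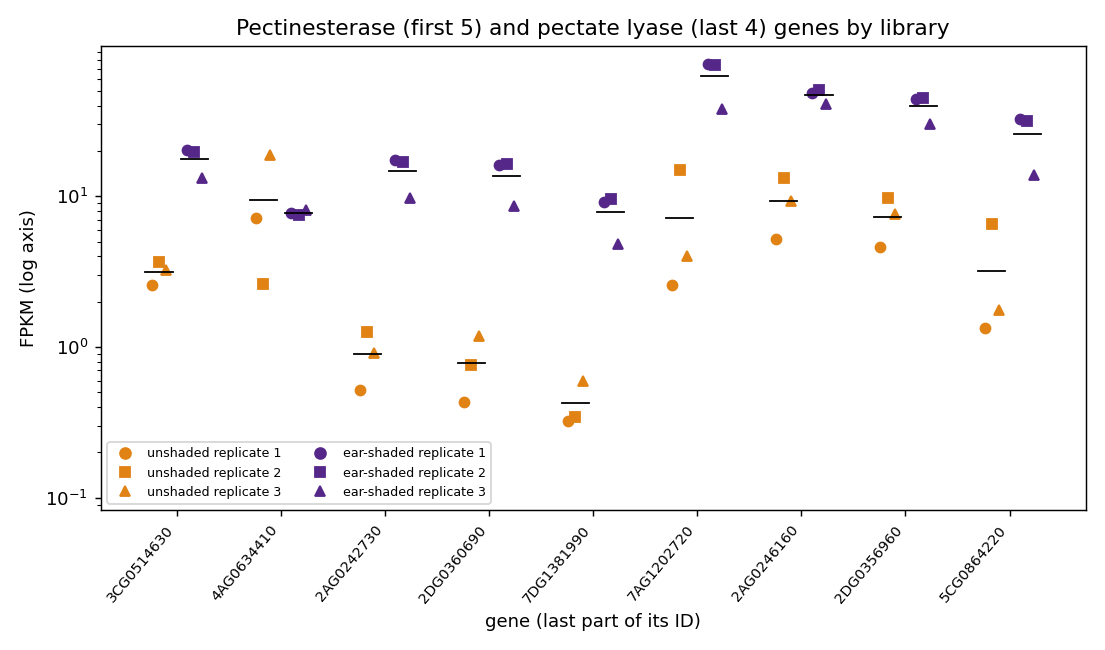
FPKM of 5 pectinesterase and 4 pectate lyase genes (log axis), 1 point per library, with black bars for group means. In 8 of the 9 genes all ear-shaded points lie above all unshaded points, and AVESA.00010b.r2.4AG0634410 overlaps, with unshaded values of 2.62 to 18.7 FPKM.

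Polygalacturonases with the number K01184 were barely expressed. All 18 had a mean under 1 FPKM, 13 of them under 0.1 FPKM, and none was tested. Together they were at 1.60, 1.45 and 1.68 FPKM in unshaded and 2.93, 2.76 and 4.03 FPKM in shaded libraries. The most abundant, AVESA.00010b.r2.3AG0415250, was at 0.308, 0.537 and 0.614 FPKM and at 0.730, 0.843 and 1.68 FPKM. AVESA.00010b.r2.3DG0556120 was at 0.146, 0.124 and 0.155 FPKM and at 0.432, 0.358 and 0.859 FPKM. AVESA.00010b.r2.3CG0462360 and AVESA.00010b.r2.7CG0689780, the others of the 4 most abundant, overlapped between groups. In both genes given with values, ear-shaded replicate 3 was the highest library. In a fit without the filter limma called AVESA.00010b.r2.3DG0556120, AVESA.00010b.r2.2CG0309790 and AVESA.00010b.r2.4AG0594460 higher and AVESA.00010b.r2.4DG0738600 lower, where 28.4% and 12.8% of all genes were. The means of these 4 genes were 0.346 FPKM or less. The class text of polygalacturonases, glycoside hydrolase family 28, also stands on 47 genes outside the rule, a set looked up after the data had been seen. Of its 27 tested genes 11 (40.7%) were higher and 7 (25.9%) lower, beside 42.4% and 21.5% of all tested genes. But 12 of the 27 had 1 group mean under 1 FPKM. Of the other 15, 3 were higher and 3 lower (20% each), beside 37.6% and 19.4% of all such genes. The set summed to 153 ± 24.9 FPKM in unshaded and 200.5 ± 22.4 FPKM in shaded grains.

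Genes that supply or accompany these enzymes were read from a list of roles. Enzymes that make the nucleotide sugars for pectin and xyloglucan had 23 of 24 tested genes higher and 0 lower, and 17 of the 18 with both group means at 1 FPKM or more. Beside these and the counts below, 42.4% of all tested genes were higher, and 37.6% of those with both group means at that level. UDP-glucuronate 4-epimerase, which makes the UDP-galacturonic acid used by GAUT, summed to 33.3 ± 7.94 FPKM in unshaded and 127 ± 19.8 FPKM in shaded grains. Its most abundant gene, AVESA.00010b.r2.6DG1156060, rose from 8.22 ± 1.33 to 35.4 ± 5.87 FPKM (limma adjusted p = 7.10e-05). UDP-glucose 6-dehydrogenase, one step before it, had 9 of 9 tested genes higher, 7 of them with both group means at 1 FPKM or more, and summed to 64.6 ± 25.5 and 191 ± 23.9 FPKM. The 3 most abundant of the role are AVESA.00010b.r2.6DG1156060 and the dehydrogenases AVESA.00010b.r2.4AG0608050, from 12.3 ± 6.43 to 39.9 ± 4.36 FPKM, and AVESA.00010b.r2.4DG0733940, from 10.7 ± 3.53 to 34.6 ± 7.66 FPKM. The rhamnose-forming UDP-glucose 4,6-dehydratase had 5 of 5 tested genes higher, 3 of them with both group means at 1 FPKM or more.

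Enzymes of xyloglucan synthesis had 13 of 15 tested genes higher and 0 lower, out of 87 genes with that text. Of all tested genes 42.4% were higher and 21.5% lower. Of the 10 with both group means at 1 FPKM or more, 8 were higher, where 37.6% of all such genes were. The xylosyltransferase AVESA.00010b.r2.6DG1178080, which adds the xylose side chains, rose from 2.16 ± 0.699 to 7.76 ± 0.877 FPKM, and AVESA.00010b.r2.4CG1321340 from 2.52 ± 1.16 to 6.50 ± 1.00 FPKM. AVESA.00010b.r2.5CG0874590, whose text joins a fucosyltransferase and a mitochondrial glycoprotein, did not pass, at 5.02 ± 0.235 FPKM without and 4.48 ± 0.804 FPKM with shading. Enzymes that trim xyloglucan and galactan had 26 of 31 tested genes higher and 0 lower. Of the 28 with both group means at 1 FPKM or more 24 were higher, again beside 37.6% of all such genes. The beta-galactosidase AVESA.00010b.r2.2AG0246640 rose from 33.8 ± 12.1 to 172 ± 1.84 FPKM and AVESA.00010b.r2.6DG1165680 from 18.8 ± 13.9 to 64.9 ± 14.0 FPKM. The unshaded libraries of the latter stood at 8.22, 34.6 and 13.5 FPKM, again with replicate 2 highest. The alpha-xylosidase AVESA.00010b.r2.3AG0407530, which trims the free ends of xyloglucan, rose from 9.93 ± 2.76 to 37.2 ± 1.47 FPKM (limma adjusted p = 0.000161).

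Inhibitor genes did not follow the enzymes. The text joins inhibitors of pectinesterase and of invertase, and of its 108 genes 55 were tested. Of these 17 (30.9%) were higher, 10 (18.2%) lower and 28 did not pass, against 42.4% higher and 21.5% lower of all tested genes. Of the 39 with both group means at 1 FPKM or more, 3 (7.7%) were higher and 10 (25.6%) lower. Over all such genes the shares were 37.6% and 19.4%, so the larger departure was in the few higher genes. The median log2 fold change was 0.063, which is 0.19 below that of all tested genes, and their sums overlapped at 364, 717 and 544 FPKM in unshaded and 392, 397 and 578 FPKM in shaded libraries. The most abundant, AVESA.00010b.r2.2CG0302780, was at 118 ± 34.8 and 87.0 ± 23.4 FPKM and AVESA.00010b.r2.2AG0223330 at 110.1 ± 60.7 and 74.9 ± 9.69 FPKM, and neither passed. AVESA.00010b.r2.4DG0732070 fell from 42.1 ± 18.7 to 19.6 ± 11.1 FPKM (limma adjusted p = 0.0420), although its groups overlapped. The 2 pectin acetylesterase genes and the 2 tested polygalacturonase inhibitor genes did not pass. Of the 2 tested galacturonosyltransferase genes outside the GAUT number both were higher, AVESA.00010b.r2.4AG0600400 from 0.677, 1.32 and 2.85 FPKM to a mean of 4.24 ± 0.587 FPKM and AVESA.00010b.r2.3CG0500470 at 1.89 ± 0.403 and 3.53 ± 0.983 FPKM.

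**Figure D5:**
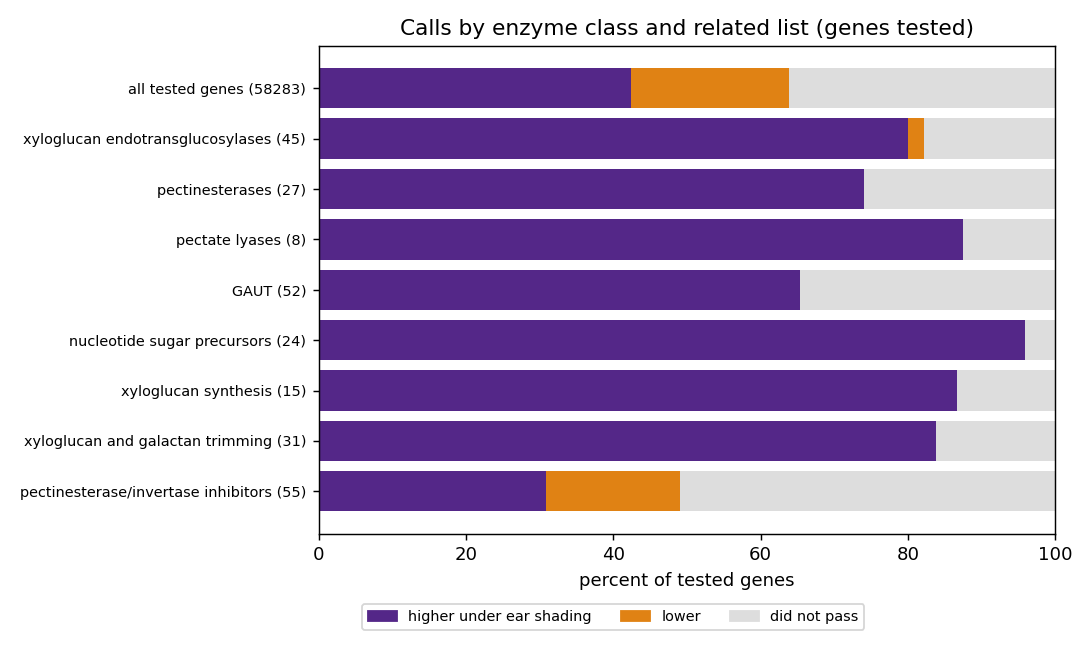
Share of tested genes that passed as higher (purple) or lower (orange) under ear shading or did not pass (grey), for all tested genes, 4 classes and 4 related lists, with the number tested in brackets. All tested genes hold 42.4% higher and 21.5% lower. Inhibitors are the related list with lower genes, 10 of 55, and nucleotide sugar precursors hold 23 of 24 higher, with genes included that entered the test through the shaded libraries.

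The sums of markers of the parts of a grain also differed between the groups, some lists lower and some higher under shading. Beside the counts below, 42.4% of all tested genes were higher and 21.5% lower. Of all genes with both group means at 1 FPKM or more, 37.6% were higher and 19.4% lower. Gliadin-text storage proteins of the starchy endosperm were present in every library, at 11373 to 23016 FPKM in unshaded and 3216 to 5486 FPKM in shaded grains, with 23 of 27 tested genes lower. Granule-bound starch synthase, a further endosperm marker, was at 485 to 634 and 369 to 453 FPKM, with 2 of 4 tested genes lower and 1 higher, and 2 and 0 of the 3 with both group means at 1 FPKM or more. Light-harvesting genes of green tissue were at 19.4 to 28.6 FPKM in unshaded and 607 to 757 FPKM in shaded grains. Of 119 genes, 32 were at 0 in all unshaded libraries and 4 in all shaded ones. Of 46 tested genes 43 had an unshaded mean under 1 FPKM and so entered through the shaded libraries, and of the other 3, 2 were higher. Oleosin genes of aleurone and embryo went from between 18.2 and 32.0 to between 7.05 and 7.61 FPKM, with 5 of 5 tested genes lower, 3 of them with both group means at 1 FPKM or more. Replication helicase genes of dividing cells were at 264 to 284 and 382 to 444 FPKM, with 25 of 32 tested higher and 3 lower, and 21 and 3 of the 28 with both group means at 1 FPKM or more. Genes with pollen allergen or Ole e I text were at 124 to 205 and 338 to 480.0 FPKM, with 18 of 29 tested higher and 2 lower. Of the 18 with both group means at 1 FPKM or more, 9 (50%) were higher and 1 (5.6%) lower. Part of that text is also used for expansins. The part of these tissues in the results on wall enzymes was not tested.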

How the data were processed

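Peeled grains were measured in 3 unshaded and 3 ear-shaded libraries, grouped by the treatment label. Each gene has an FPKM value for every library in the table the authors deposited, beside its length. The deposited columns of the authors' own comparison hold a log2 fold change, a p-value and its adjusted form. The submitters' processing notes name HISAT2 and StringTie, with no version or role; build, strand setting and the authors' test were not given in the sources used here. A search for whole reads placed 16.6% to 18.1% of low values within 0.05 of a whole number at the best step, where 10% is expected at 1 fixed step, so depth is unknown and no count model was used.

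Members were found by KEGG number. Members and lists were chosen with earlier results of these data known. The 58283 of 136488 genes that averaged 1 FPKM or more were tested on log2(FPKM + 1) with limma 3.58.1 in R 4.3.3 and a mean-variance trend. The two-sided p-values were adjusted over this whole set by the Benjamini-Hochberg method, and an adjusted value under 0.05 was called. Log2 fold changes are on that scale, which understates low genes; folds are ratios of mean FPKM. The model was tested on simulated data. Named per class were the 4 genes of highest mean and the 3 largest called increases and decreases with a mean of at least 2 FPKM, and per related role up to 3 of highest mean. Genes outside this rule that are named as exceptions to a count or for their spread were chosen after their values were seen. Alternatives covered pseudocount, filter, scaling, variance trend, replicate block, each library left out, and ear-shaded replicates 1 and 2 averaged. No sequence or position is given, since no genome was used here.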

Additional observations from a re-analysis of the deposited data

How the results depend on the processing

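Counts of called genes were recomputed under 15 alternatives. Without the filter on low values, 38730 genes of the whole table higher, 2 members lower, 31 pectinesterases higher, and 3 polygalacturonases higher with 1 lower were called. With a mean of at least 2 FPKM, 12 pectinesterases were higher, since fewer were tested. Median-of-ratios scaling gave 16334 higher genes in the table, 3 members lower, 16 GAUT genes higher and 2 lower, and log2 ratios of summed FPKM of 0.65 for polygalacturonases and 0.37 for GAUT, in place of 1.04 and 0.76. Quantile normalization gave 2 members lower, 22 GAUT genes higher and 1 lower, and a polygalacturonase log2 ratio of 0.49. Of the 58283 genes tested, quantile normalization called 18202 higher and 16681 lower, and equal sums 27549 and 10925, in place of 24724 and 12503. Leaving out each library in turn gave 1 to 3 members lower, 1 to 2 xyloglucan endotransglucosylases lower and 0 to 1 pectate lyases lower. Members called higher ranged from 83 to 104 in these fits, and 85 were called with ear-shaded replicates 1 and 2 averaged.

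Among named genes the sign of AVESA.00010b.r2.4AG0634410 turned with median-of-ratios scaling (-0.26), with quantile normalization (-0.13) and without unshaded replicate 2 (-0.53), and it was 0.70 without unshaded replicate 3. That of AVESA.00010b.r2.4DG0744890 and AVESA.00010b.r2.5DG0991300 turned with median-of-ratios scaling (-0.060 and -0.19). The cause was not tested. With the replicate number as a block, 93 members were higher and 1 lower; the numbers do not pair the libraries, as same-numbered deviations correlated at -0.052, -0.046 and -0.15, and the call of AVESA.00010b.r2.5AG0856160 ended (log2 fold change 0.42, limma adjusted p = 0.0871). Depth is unknown, so no limit can be set for genes near 0 FPKM.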
